A study of Saccharomyces cerevisiae with 5 samples.

Results

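The genes described here are 6 phosphatase genes of budding yeast (Saccharomyces cerevisiae), PHO5, PHO11, PHO3, DIA3, PHO8 and PHO13, out of 5449 genes with a matched probe set on the array. They were chosen by name, from the annotation of the probe sets, by a rule that used no measured value. Earlier results of these data were known when the choice was made. Each of the 6 had 1 probe set. Transcript levels were measured on 5 Affymetrix expression arrays. The wild-type group held 3 arrays of FY4, the reference strain. The other group held 2 arrays of a strain whose label gives a deletion of PHO2 and no other allele, and the labels do not name its parent strain. Per the labels, both groups grew in batch culture at 30 °C in minimal medium with glucose and were harvested in exponential growth at the same cell density. The labels state no phosphate concentration and no starvation step, so a comparison with phosphate-starved cells was not analysed here.

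Acid and alkaline phosphatases release inorganic phosphate from organic phosphate esters outside the cell, in the vacuole or in the cytosol. In budding yeast, the cyclin and kinase pair Pho80 and Pho85 phosphorylates the transcription factor Pho4 and keeps it out of the nucleus while phosphate is plentiful. When phosphate is scarce, the inhibitor Pho81 blocks the kinase, and Pho4, with the homeodomain protein Pho2, activates genes such as PHO5. PHO5 encodes the main secreted acid phosphatase, and PHO11 and its near-identical paralog PHO12 encode minor secreted ones. PHO3, which lies next to PHO5 on the chromosome, encodes a secreted acid phosphatase that is repressed by thiamine rather than by phosphate. DIA3 encodes a protein related to the acid phosphatases and is known from invasive growth, PHO8 encodes the vacuolar alkaline phosphatase, and PHO13 encodes a cytosolic phosphatase of the haloacid dehalogenase family that removes side products of metabolism.

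Of the 6 probe sets, 5 carry the suffix that Affymetrix gives to sets for a single transcript, those of PHO5, PHO3, DIA3, PHO8 and PHO13. The PHO11 set carries the suffix for probes shared by several transcripts (_s_at), as do 103 of the 5498 matched probe sets. The annotation lists it for PHO11 alone and holds 0 probe sets for PHO12. The sources used here do not say which transcripts the PHO11 probes match, so its values are given as those of the PHO11 probe set and may hold signal of PHO12. The protein products of the acid phosphatase genes are similar in sequence, and signal from a paralog was not tested for any of the 6 probe sets.

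Over all genes, the correlation of log2 values was 0.988 to 0.995 for pairs of wild-type arrays and 0.994 for the pair labelled PHO2 deletion. Precision is limited by having 5 arrays. The labels do not state separate cultures for the replicates, so p-values reflect the spread between these 5 samples, and that spread may be technical. The probe set of PHO2 itself did not tell the groups apart. It gave log2 values of 10.72, 10.54 and 10.38 in wild-type and 10.07 and 10.84 on the arrays labelled PHO2 deletion (difference -0.09, SE 0.24, limma adjusted p = 0.825). Each of these PHO2 values, in both groups, lay above the background bounds of 6.44 and 9.35 that are set out below. The sources used here do not place the PHO2 probes relative to the deleted part, so this probe set may check nothing. The group names are used as labels throughout. Reporter probe sets are designed for foreign sequences of yeast constructs. Of 47 such sets, 1 was picked for having the largest difference between the groups. It read 4.38, 4.58 and 4.29 (log2) in wild-type and 14.35 and 14.38 on the arrays labelled PHO2 deletion.

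All 30 values of the 6 genes lay above the background measured on fission yeast probe sets. Part of the array is designed for fission yeast (Schizosaccharomyces pombe), an organism that is not among the samples. Fission yeast probe sets were taken as the 1747 annotated sets not matched to a single S. cerevisiae gene, so this pool may hold other sets. Their log2 values had a 95th percentile of 6.44, a signal of 86.9, which served as the background bound. PHO5 lay 3.12 to 3.41 log2 units above this bound, the PHO11 probe set 3.26 to 3.46 and PHO3 3.28 to 3.47. DIA3 came closest to it, from 1.76 to 2.69 log2 units above. The range was 5.87 to 6.01 for PHO8 and 6.50 to 6.57 for PHO13. A wider bound, the 95th percentile over all 5430 probe sets matched to no S. cerevisiae gene, was 9.35. That pool holds 213 control and reporter probe sets with a median log2 value of 8.22, and other sequences without annotation whose 95th percentile was 9.46. Against it, 25 of the 30 values were above the bound, and the 5 that were not were those of DIA3. Levels of different probe sets depend on their probes, so the 6 genes are not ranked against each other.

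**Figure D1:**
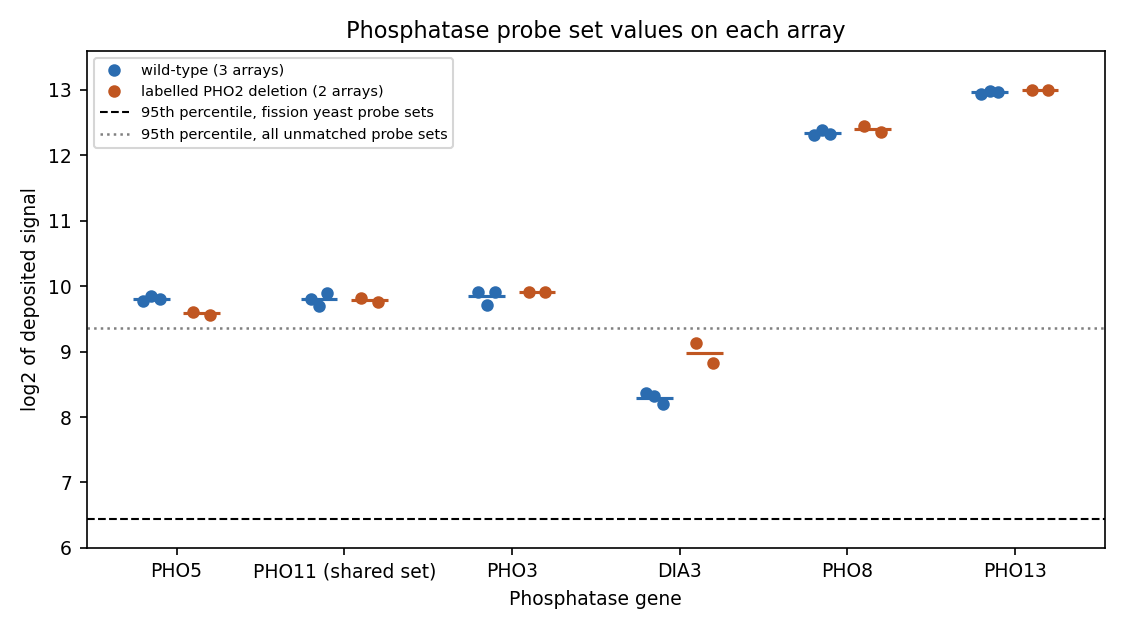
Log2 of the deposited signal (vertical axis) of the 6 phosphatase probe sets on each array. Points are single arrays, short bars are group means, the dashed line is the fission yeast bound of 6.44 and the dotted line the wider bound of 9.35. DIA3 is the gene whose 2 groups lie furthest apart, and its 5 points lie between the lines.

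Between the groups, 1 of the 6 phosphatase genes changed, DIA3, which was higher on the arrays labelled PHO2 deletion. Here a gene is said to change where its adjusted p was below 0.05 by limma, a linear model with variances moderated across all genes, with Benjamini-Hochberg adjustment over the 5449 genes. By that rule 275 genes changed, or 5.05% of all genes tested. That count was 23 without wild-type replicate 1, 19 with PHO2 deletion replicate 1 left out and 26 with PHO2 deletion replicate 2 left out, 35 with the replicate number as a block and 638 with array weights. Higher genes made up 3.17% (173 genes) and lower genes 1.87% (102 genes), and with the arrays quantile normalized again 173 were higher and 210 lower. At an unadjusted p below 0.05 there were 2 of the 6, DIA3 and PHO5, against 29.4% of all genes. The groups did not overlap for 3 of the 6 genes, with PHO5 lower and DIA3 and PHO13 higher, while 53.0% of all genes had groups that did not overlap (25.9% lower and 27.1% higher). The median log2 difference of the 6 genes was 0.05, and that of all genes was 0.01.

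DIA3 (YDL024C) was 1.61-fold higher on the arrays labelled PHO2 deletion. Its log2 values were 8.37, 8.32 and 8.20 in wild-type, a mean of 8.29 ± 0.09 (SD, n = 3). They were 9.13 and 8.82 on the arrays labelled PHO2 deletion, a mean of 8.98 ± 0.22 (SD, n = 2). Both of the latter lay above every wild-type value, and the gap between these 2 arrays, 0.31, was wider than the wild-type range of 0.17. The difference was 0.68 on the log2 scale (SE 0.11, limma adjusted p = 0.0394). Its 95% interval ran from 1.32-fold to 1.95-fold higher, and 5.51% of all genes had a difference at least as large in size. DIA3 did not pass the threshold once any 1 array was left out. The limma adjusted p was then 0.125 without wild-type replicate 1, 0.0614 without wild-type replicate 2 and 0.0619 without wild-type replicate 3. It was 0.180 without PHO2 deletion replicate 1 and 0.0793 without PHO2 deletion replicate 2, fits in which the lone array is assumed to vary like the other group. The median signal over all probe sets was also higher on the arrays labelled PHO2 deletion, at 313 and 297 beside 260, 253 and 244 in wild-type. With the distributions made equal by quantile normalization, the DIA3 difference was 0.50 (limma adjusted p = 0.0295), smaller than the 0.68 above. Whether the signal level of the arrays adds to the DIA3 difference was not tested. The difference stayed positive under each of the 13 alternatives that tested the gene, from 0.50 to 0.84. Every DIA3 value lay below the wider bound of 9.35, so the alternative that left out genes below that bound did not test it.

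PHO5 (YBR093C), a textbook target of Pho4 acting with Pho2, was lower on both arrays labelled PHO2 deletion but did not pass the threshold. Its log2 values were 9.77, 9.86 and 9.80 in wild-type, a mean of 9.81 ± 0.04 (SD, n = 3). They were 9.61 and 9.56 on the arrays labelled PHO2 deletion, a mean of 9.59 ± 0.04 (SD, n = 2). The groups did not overlap, and each was narrower than the distance between them. The level on the arrays labelled PHO2 deletion was 85.7% of wild-type, with a 95% interval from 77.6% to 94.6% (log2 difference -0.22, SE 0.06, unadjusted p = 0.0100, adjusted p = 0.0890 by limma). A difference of this size or larger was found for 30.0% of all genes. The interval is for this gene alone and is not adjusted for the number of genes. PHO5 fell past the threshold in 1 of 14 alternatives, when the arrays were quantile normalized again (log2 difference -0.33, limma adjusted p = 0.0436). The limma adjusted p was 0.192, 0.124 and 0.117 without wild-type replicate 1, 2 and 3 in turn. With the replicate number as a block it was 0.275. The difference was -0.25 without PHO2 deletion replicate 1 and -0.20 without PHO2 deletion replicate 2. The sign was negative under all 14 alternatives.

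The PHO11 probe set (YAR071W) gave overlapping groups. The 3 wild-type arrays gave log2 values of 9.81, 9.70 and 9.90 (mean 9.80 ± 0.10, SD, n = 3), and those labelled PHO2 deletion gave 9.81 and 9.76 (mean 9.78 ± 0.04, SD, n = 2). Both of the latter lay within the wild-type range. The difference was -0.02 (SE 0.08, limma adjusted p = 0.892), and its 95% interval ran from 86.5% to 113% of the wild-type level. A difference for PHO11 or PHO12 alone cannot be told apart on a shared probe set.

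PHO3 (YBR092C), the thiamine-repressed neighbour of PHO5, also gave overlapping groups. Log2 values of PHO3 were 9.91, 9.72 and 9.91 in wild-type (mean 9.85 ± 0.11, SD, n = 3) and 9.91 and 9.91 on the arrays labelled PHO2 deletion. Wild-type replicate 2 was the low array, and the other 4 arrays were nearly equal. The difference was 0.06 (SE 0.08, limma adjusted p = 0.617), with a 95% interval from 90.9% to 120% of the wild-type level. Without wild-type replicate 2 the PHO3 difference was 0.00017 on the log2 scale.

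PHO8 (YDR481C), whose product matures in the vacuole after cleavage by the protease Pep4, did not pass the threshold. Its log2 values were 12.31, 12.38 and 12.32 in wild-type (mean 12.34 ± 0.04, SD, n = 3) and 12.46 and 12.36 on the arrays labelled PHO2 deletion (mean 12.41 ± 0.07, SD, n = 2). The groups overlapped, with a difference of 0.07 (SE 0.06, limma adjusted p = 0.469) and a 95% interval from 94.4% to 117% of the wild-type level. PHO13 (YDL236W) had a 95% interval from 93.7% to 112% of the wild-type level, the narrowest of the 6 genes on the log2 scale. On the log2 scale it read 12.94, 12.99 and 12.97 in wild-type (mean 12.97 ± 0.02, SD, n = 3) and 12.99 and 13.01 on the arrays labelled PHO2 deletion. The groups missed overlapping by a small margin, 12.987 in wild-type replicate 2 against 12.994 in PHO2 deletion replicate 1, and the difference of 0.03 (SE 0.05, limma adjusted p = 0.679) was smaller than its SE.

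**Figure D2:**
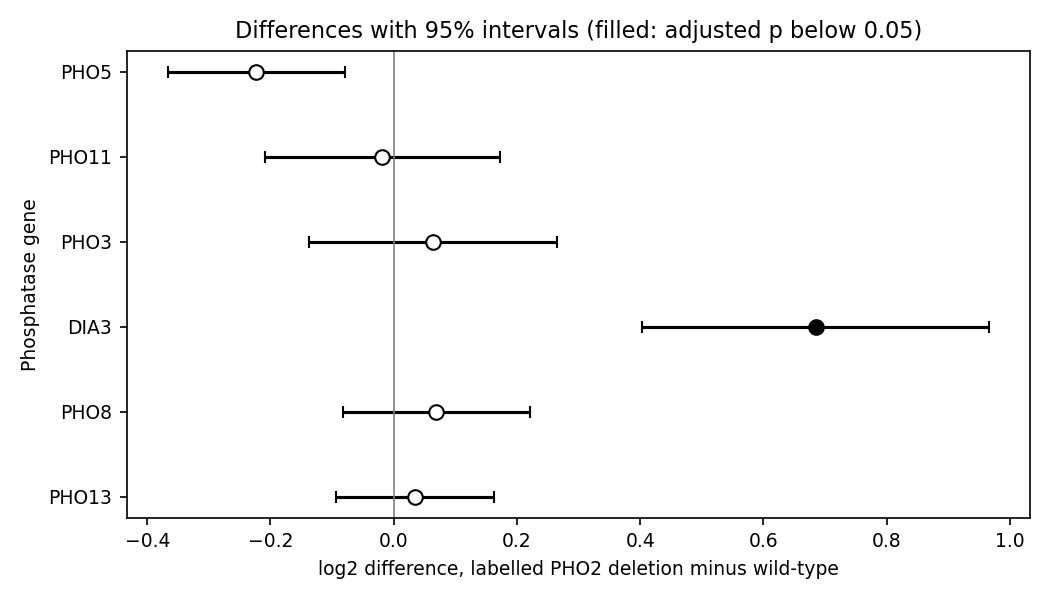
Log2 difference of each phosphatase gene, arrays labelled PHO2 deletion minus wild-type (horizontal axis), with the unadjusted 95% interval from limma. The filled point is past the adjusted threshold. The intervals of PHO11, PHO3, PHO8 and PHO13 cross 0, that of PHO5 lies below it and that of DIA3 above it.

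Among the wild-type arrays the 6 genes did not vary together. Wild-type replicate 2 was the lowest of the 3 for PHO11 and PHO3 and the highest for PHO5, PHO8 and PHO13. The wild-type SD ranged from 0.02 for PHO13 to 0.11 for PHO3, beside a median of 0.09 over all genes. Between the arrays labelled PHO2 deletion, the SD ranged from 0.0025 for PHO3 to 0.22 for DIA3, beside a median of 0.06 over all genes.

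Genes whose profile over the 5 arrays lay closest to each phosphatase gene were found by the root mean square difference of mean-centred log2 values. The search covered the genes above the wider bound on all arrays. For PHO5 the nearest were YPK1 at 0.0067, ACS2 at 0.016 and BUR2 at 0.018 log2 units. Each of these 3 had a difference between -0.22 and -0.21, and like PHO5 none passed the threshold (limma adjusted p from 0.0897 to 0.0920). For DIA3 the nearest were MUP1, the high-affinity methionine permease gene, at 0.069, SDH2, a succinate dehydrogenase subunit gene, at 0.083 and YDL124W at 0.085 log2 units. These 3 rose by 0.79, 0.64 and 0.69 (limma adjusted p = 0.0241, 0.0145 and 0.0278). The nearest genes of PHO11 were YOL029C, ZAP1 and ESC1, those of PHO3 were PFK27, STD1 and PMP1, those of PHO8 were CDC28, TOM22 and HAL5, and those of PHO13 were TOF2, PET494 and BRF1. The search picks genes by the same values, so a group difference close to that of the phosphatase gene follows from the choice. These profiles share the 5 arrays and their normalization, and the likeness was not tested.

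The neighbours of the phosphatase genes on the chromosome, taken from assembly R64, held no gene past the threshold. On the side of PHO5 away from PHO3, PBY1 differed by -0.19 (limma adjusted p = 0.156). Beside DIA3, the kinase gene RTK1 differed by -0.17 (adjusted p = 0.160), the opposite sign to DIA3. The small gene YDL022C-A, which overlaps DIA3 in that annotation, had no matched probe set, and the sources used here do not say whether the DIA3 probes lie in the overlap. TIM12, next to PHO3, differed by 1.01, but its wild-type SD was 0.72 (adjusted p = 0.184). YAR068W next to PHO11 differed by -0.49 (adjusted p = 0.0807), CWC21 and DIG2 next to PHO8 by 0.54 and 0.07 (adjusted p = 0.239 and 0.528), and AIM6 and YPD1 next to PHO13 by 0.02 and 0.21 (adjusted p = 0.921 and 0.179).

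Counts over related gene lists are to be read against all genes tested, of which 5.05% passed the threshold and 29.4% had an unadjusted p below 0.05. Of 18 phosphate-responsive genes outside the 6, 1 rose and 0 fell by limma, with a median log2 difference of 0.13. At an unadjusted p below 0.05 there were 10 of the 18, or 55.6%, beside 29.4% of all genes. Directions within the list were mixed: 8 of the 18 differences were negative and 10 positive, from -0.32 to 1.30. With the arrays quantile normalized again, 1 of these genes rose and 3 fell. The gene that rose was GPP2, also called HOR2, which encodes a glycerol-3-phosphatase of glycerol synthesis. Its log2 values were 12.65, 12.62 and 12.68 in wild-type and 13.41 and 13.30 on the arrays labelled PHO2 deletion, groups that lie well apart (log2 difference 0.71, SE 0.06, limma adjusted p = 0.0105). Of 8 genes for phosphate signalling or for low-affinity transport, 0 rose and 0 fell by limma, and 3 (37.5%) had an unadjusted p below 0.05, beside 29.4% of all genes. All 8 differences were negative, with a median of -0.12, and 2630 of the 5449 genes had a negative difference. The smallest p belonged to the low-affinity transporter genes PHO90 (-0.26, adjusted p = 0.0807) and PHO87 (-0.13, adjusted p = 0.163) and to VIP1, an inositol pyrophosphate synthase gene (-0.14, adjusted p = 0.152).

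Of 19 measured genes for other phosphatases of small molecules and polyphosphate, 1 rose, GPP2 again, and 0 fell by limma (median 0.08), where 5.05% of all genes passed. An unadjusted p below 0.05 was found for 5 of them (26.3%), beside 29.4% of all genes. Of 10 measured vacuolar hydrolase genes, which share the compartment of the PHO8 product, 1 rose and 0 fell by limma (median 0.11), and 3 (30.0%) had an unadjusted p below 0.05, near the 29.4% of all genes. The gene that rose was AMS1, the vacuolar alpha-mannosidase gene, with a difference of 0.90 (SE 0.13, limma adjusted p = 0.0291). PHO3 was set beside genes of thiamine synthesis, uptake and regulation. Of 15 measured, 2 rose and 0 fell by limma (median 0.16), where 5.05% of all genes passed. An unadjusted p below 0.05 was found for 6 of the 15 (40.0%), beside 29.4% of all genes. THI13, of the synthesis of the thiamine pyrimidine precursor, went from a mean of 7.76 to 8.94 on a probe set marked as shared (log2 difference 1.18, SE 0.14, limma adjusted p = 0.0211). PET18 rose by 0.59 (SE 0.08, limma adjusted p = 0.0295). GPP2, AMS1, THI13 and PET18 did not pass when wild-type replicate 1, PHO2 deletion replicate 1 or PHO2 deletion replicate 2 was left out (limma adjusted p from 0.0598 to 0.202). THI13 lay below the wider bound of 9.35 on every array, and AMS1 and PET18 lay below it in wild-type. The listed genes PYP1, ATG42, THI5, THI11, THI12 and SNZ2 had no matched probe set and were not analysed here.

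**Figure D3:**
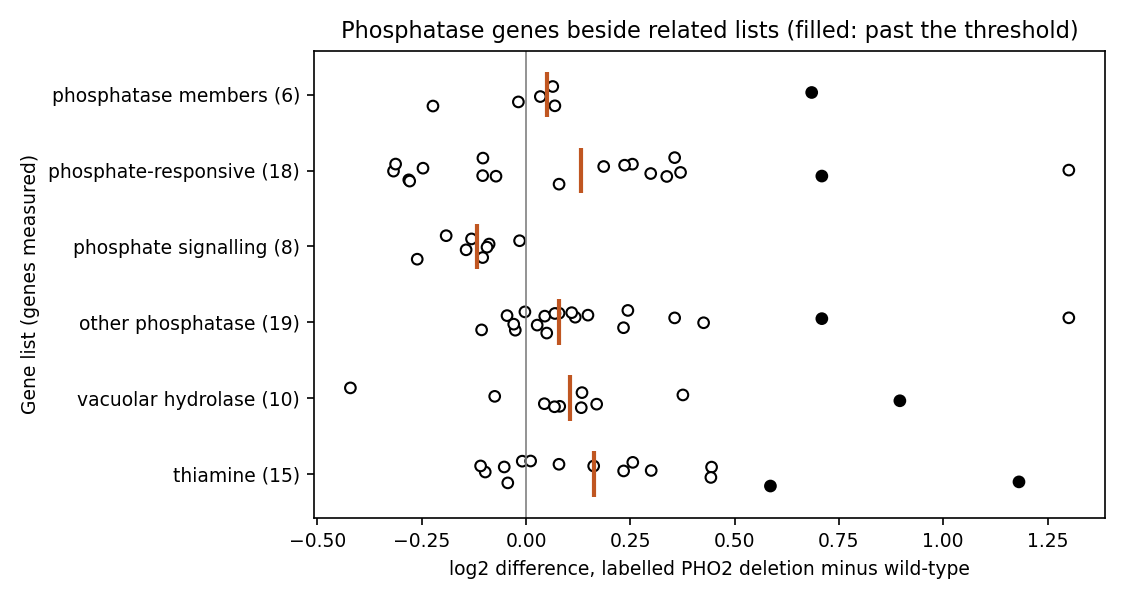
Log2 differences (horizontal axis) of the 6 phosphatase genes and of 5 related lists, with the number of genes measured in parentheses. Points are genes, filled where past the threshold, vertical bars are list medians, and vertical scatter within a list has no meaning. Each list but phosphate signalling holds 1 or 2 filled points, all above 0, and GPP2 and 3 other genes appear in both phosphate-responsive and other phosphatase lists.

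The call for DIA3 and the missed call for PHO5 both lay near the threshold. Settings that tested the gene on all 5 arrays without a replicate block gave DIA3 a limma adjusted p from 0.0263 to 0.0396. The same settings gave PHO5 0.0436 to 0.108. With the replicate block it was 0.102 for DIA3 and 0.275 for PHO5. Without 1 wild-type array it ran from 0.0614 to 0.125 for DIA3 and from 0.117 to 0.192 for PHO5.

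**Figure D4:**
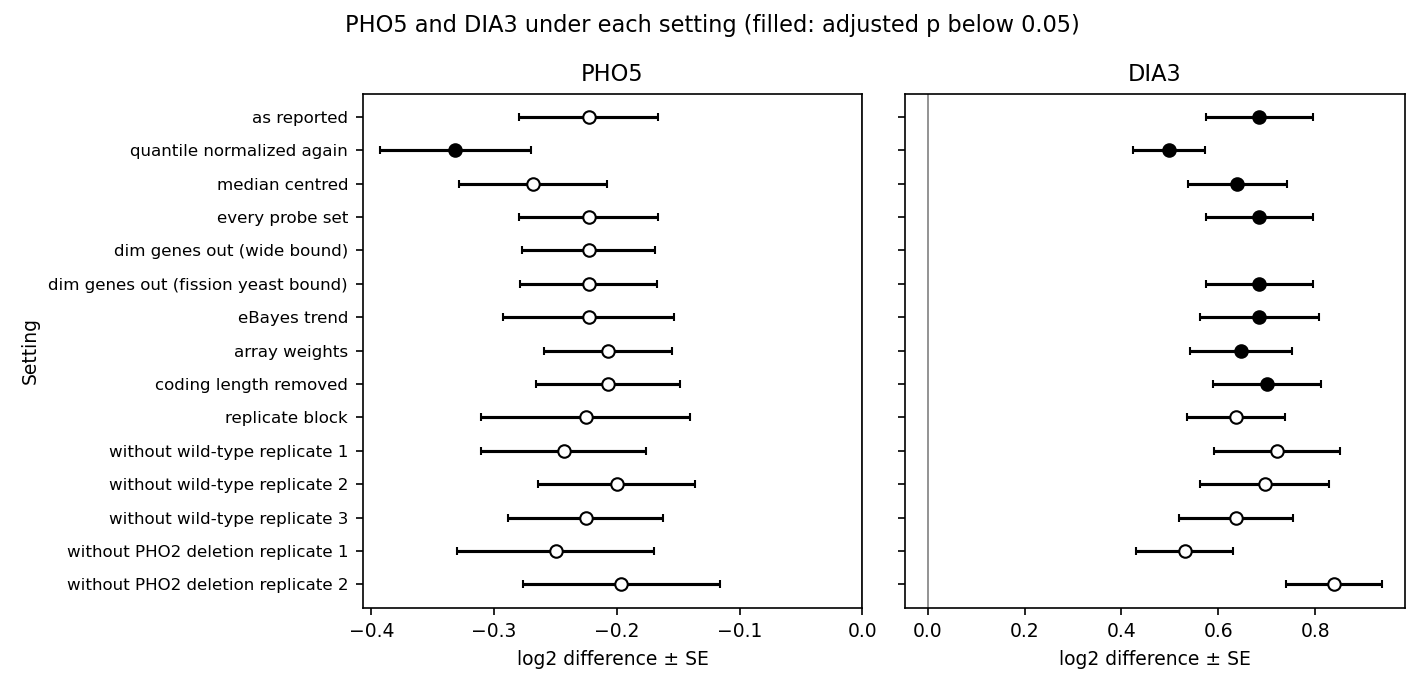
Log2 difference ± SE (horizontal axes, which differ between the panels) of PHO5 and DIA3 under each setting, filled where the adjusted p was below 0.05. PHO5 is filled in 1 setting, the repeated quantile normalization. DIA3 is open with the replicate block and without any 1 array, and has no value where genes below the wider bound were left out.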

How the data were processed

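Biotin-labelled RNA was read on Affymetrix arrays, per the labels' protocols. Each deposited value is the linear intensity of a probe set on an array (9.49 to 37719). RMA, run with affy under R 2.8.0, is listed in the submitters' processing notes. RMA gives log2 values, so a return to the linear scale by the authors is inferred from the deposited values, and log2 was taken again here. The sources used here do not say which arrays were normalized together. Quantile normalization hides a change common to most transcripts.

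Of 10928 probe sets, 5498 were matched to a gene of assembly R64. For 47 genes with several, the set with the highest mean was kept. The groups were tested by limma 3.58.1 (R 4.3.3, lmFit and eBayes, two-sided, 3 residual and 2.23 prior degrees of freedom), without dropping dim genes. The fit was also tested on simulated data with independent noise and no array effect, so that test does not cover differences between whole arrays. With groups of 3 and 2, permutation allows 10 splits and cannot reach the threshold, so none was run. The written design set the background at the wider bound of 9.35. The fission yeast bound was added after the data were seen, since the wider pool holds expressed sequences. The related lists are described by counts and medians, and of each list the genes past the threshold are named or, with none, the 3 with the smallest p. Members and lists were chosen with earlier results of these data known. Sequences were not used here. Alternatives were another normalization, centring, probe set choice, dim filters, eBayes trend, array weights, coding length, a replicate block and leaving out each array.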

Additional observations from a re-analysis of the deposited data

Results flagged for a closer look

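No comparison of the phosphatase genes uses the 47 reporter probe sets. The set with the largest difference had a mean on the arrays labelled PHO2 deletion about 243-fold the fission yeast bound. Its wild-type values did not reach that bound. The sources used here do not name the sequence this set stands for.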

How the results depend on the processing

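The signs of DIA3 (positive), PHO5 (negative) and PHO8 (positive) held under each alternative that tested them. Small differences changed sign: PHO3 was -0.033 with the arrays quantile normalized again, PHO13 was -0.011 with arrays centred on the gene median and -0.0075 with a coding length trend removed, and PHO11 was 0.029 with the replicate block and from -0.069 to 0.029 without 1 array. The cause was not tested. Quantile normalizing again gave PHO5 a difference of -0.33 past the threshold, and so 2 called phosphatase genes and 4 phosphate-responsive genes (1 risen, 3 fallen). With the replicate number as a block, DIA3 missed the threshold (0.64, adjusted p = 0.102), 0 phosphatase genes passed, 35 of all genes passed and 0 genes passed in the phosphate-responsive, other phosphatase, vacuolar hydrolase and thiamine lists. In the sample titles, same-numbered arrays of the 2 groups share only a number. Their deviations from the group means correlated across genes at -0.38 and -0.0027. With 2 arrays labelled PHO2 deletion, the deviations of those arrays mirror each other, so the correlations cannot show whether arrays were paired. This block leaves wild-type replicate 3 without a partner. Leaving out 1 array at a time gave DIA3 differences from 0.53 to 0.84 and 0 called phosphatase genes each time, from 19 to 257 called genes in all, 0 to 1 called in the phosphate-responsive, other phosphatase and vacuolar hydrolase lists and 0 to 2 in the thiamine list. Among these, 23 genes of the whole array passed when wild-type replicate 1 was left out, 19 in the absence of PHO2 deletion replicate 1 and 26 in that of PHO2 deletion replicate 2. Array weights called 638 genes, with 7 phosphate-responsive, 1 phosphate signalling, 2 other phosphatase, 3 vacuolar hydrolase and 4 thiamine genes. A trend in eBayes called 2 phosphate-responsive and 2 vacuolar hydrolase genes, and removing the coding length trend called 4 phosphate-responsive genes. Leaving out genes below the wider bound removed DIA3, AMS1, THI13 and PET18 from the fit and left 0 called phosphatase, 0 vacuolar hydrolase and 0 thiamine genes. Over the 99th percentile of all unmatched probe sets (12.85), 5 of the 30 phosphatase values, those of PHO13, remained above background, while all 30 lay above the 99th percentile of the fission yeast sets (7.38). The median difference of all genes was 0.01 as first fitted. It was -0.05 with the arrays quantile normalized again and -0.04 with arrays centred on the gene median. Over all settings it ran from -0.05 to 0.04, the upper end without PHO2 deletion replicate 2. Values near background can understate fold changes, which was not tested for these genes.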
